A study of Mus musculus with 6 samples.

Results

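Collagens, laminins and the genes that build the extracellular matrix were followed in mouse limb bud tips, the distal ends of the bud, after overexpression of the homeobox gene Meis2. The members were taken by gene symbol, with earlier results of these data known: collagen chains, laminin chains, nidogens, fibrillins, fibulins, fibronectin, versican, Sparc, lysyl oxidases, lysyl hydroxylases, ADAMTS proteases and integrin subunits. This gave 81 genes of the 12065 in the table. All 81 had reads in every library, and 70 averaged more than 5 CPM (the read count scaled to library depth).

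The overexpression group held HoxB6CreER; R26Meis2a/Meis2a embryos, in which Cre recombinase, driven by HoxB6 and activated by tamoxifen, switches on a Meis2a-IRES-EYFP transgene in the Rosa26 locus. The control group held R26Meis2a/Meis2a embryos, with the same homozygous transgene and no Cre, so that effects of Cre and of raised Meis2 cannot be told apart. The mothers of both groups received 0.8 mg of 4-hydroxy-tamoxifen at embryonic day 8.3. Each genotype had 3 libraries, 1 each at 37, 38 and 39 somites, and each library was made from the tips of 2 pooled embryos. Stage and replicate number are therefore the same thing. Values of single libraries below are given in the order 37, 38 and 39 somites.

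The matrix of the early limb bud is laid down by the mesenchyme, the overlying ectoderm and the vessels. Fibril-forming collagens such as type I give tensile strength, whereas type IV collagens and laminins form separate sheets, linked by nidogens, in the basement membranes under epithelia and around vessels. Lysyl hydroxylases and lysyl oxidases prepare and make the crosslinks between chains, ADAMTS proteases trim collagens and versican, and integrins, each an alpha and a beta subunit, connect cells to the matrix. Cartilage and tendon have not yet formed in the distal tip at these stages.

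The libraries held between 7622698 and 15395447 recovered reads, and a count of 0 allowed at most 3 reads, or 0.194 to 0.388 CPM, for counting error only. Meis2 mRNA was at 41.3, 33.4 and 28.2 CPM in the overexpressing libraries and at 20.6, 15.3 and 13.8 CPM in the controls, a log2 fold change of 1.01. Of 15 markers of limb mesenchyme, 10 were higher and 5 lower by sign with 1 called higher, and their summed level was 1898 to 2005 CPM in overexpressing and 1669 to 1810 CPM in control libraries. Of 27 markers of ectoderm and its apical ridge, 25 were tested, all 25 were lower by sign and 10 were called lower, with summed levels of 776 to 814 CPM in overexpressing and 1040 to 1108 CPM in control libraries. All 16 endothelial markers were higher by sign and 1 was called (Kdr), with sums of 451 to 479 CPM in overexpressing and 362 to 403 CPM in control libraries. All 16 erythroid markers were higher by sign and 3 were called, with sums of 4457 to 5299 CPM in overexpressing and 2611 to 3806 CPM in control libraries. Macrophage (4 of 14 tested), nerve (3 of 7) and muscle markers (1 of 9) had low sums, at most 36.4 CPM in any library. No marker that was tested had 0 reads in any library. No member of the matrix genes is on these lists. In bulk tissue fewer cells of a type and less RNA per cell cannot be told apart, and the part of these shifts in the results below was not tested.

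Most matrix genes differed little between the genotypes. The genes that rose in overexpressing tips were 3 collagens, Col12a1 (5.82-fold), Col1a1 (1.52-fold) and Col1a2 (1.40-fold). These were the higher calls of limma on log2(CPM + 1) at an adjusted p under 0.05. The 3 genes called higher are 3.70% of the members, where 0.787% of all genes tested were called higher, and the 1 called lower is 1.23%, where the background is 0.68%. The other 77 were not called. The higher share includes Col12a1, which may be in the table only through its overexpressing libraries, as described below. At an unadjusted p under 0.05, to which the counts by group below refer, 14 of the 81 members were higher and 18 lower. Of all 12065 genes, 980 (8.12%) were higher and 938 (7.77%) lower, smaller shares than among the members. The counts by group are given as a description. By sign 39 members were higher and 42 lower, with a median log2 fold change of -0.02 against -0.00 over all genes, and 71 of the 81 estimates lay within 0.5 log2 units of 0. For 75 members the 95% interval lay within 1 log2 unit of 0 on either side. The libraries of the genotypes did not overlap for 27 members (33.3%), 14 with all overexpressing libraries above and 13 below, whereas this held for 20.7% of all genes, 10.4% in each direction. The count of calls depended on the variance model and on single libraries. Robust eBayes without a trend called none of the 81 members and 86 genes in all. Leaving out the 38-somite overexpressing library or the 39-somite control also left no member called. edgeR on recovered reads called the same 4 members, and DESeq2 called 3 higher and 6 lower. Of all 12065 genes, edgeR called 88 higher and 83 lower, and DESeq2 called 144 higher and 146 lower.

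**Figure D1:**
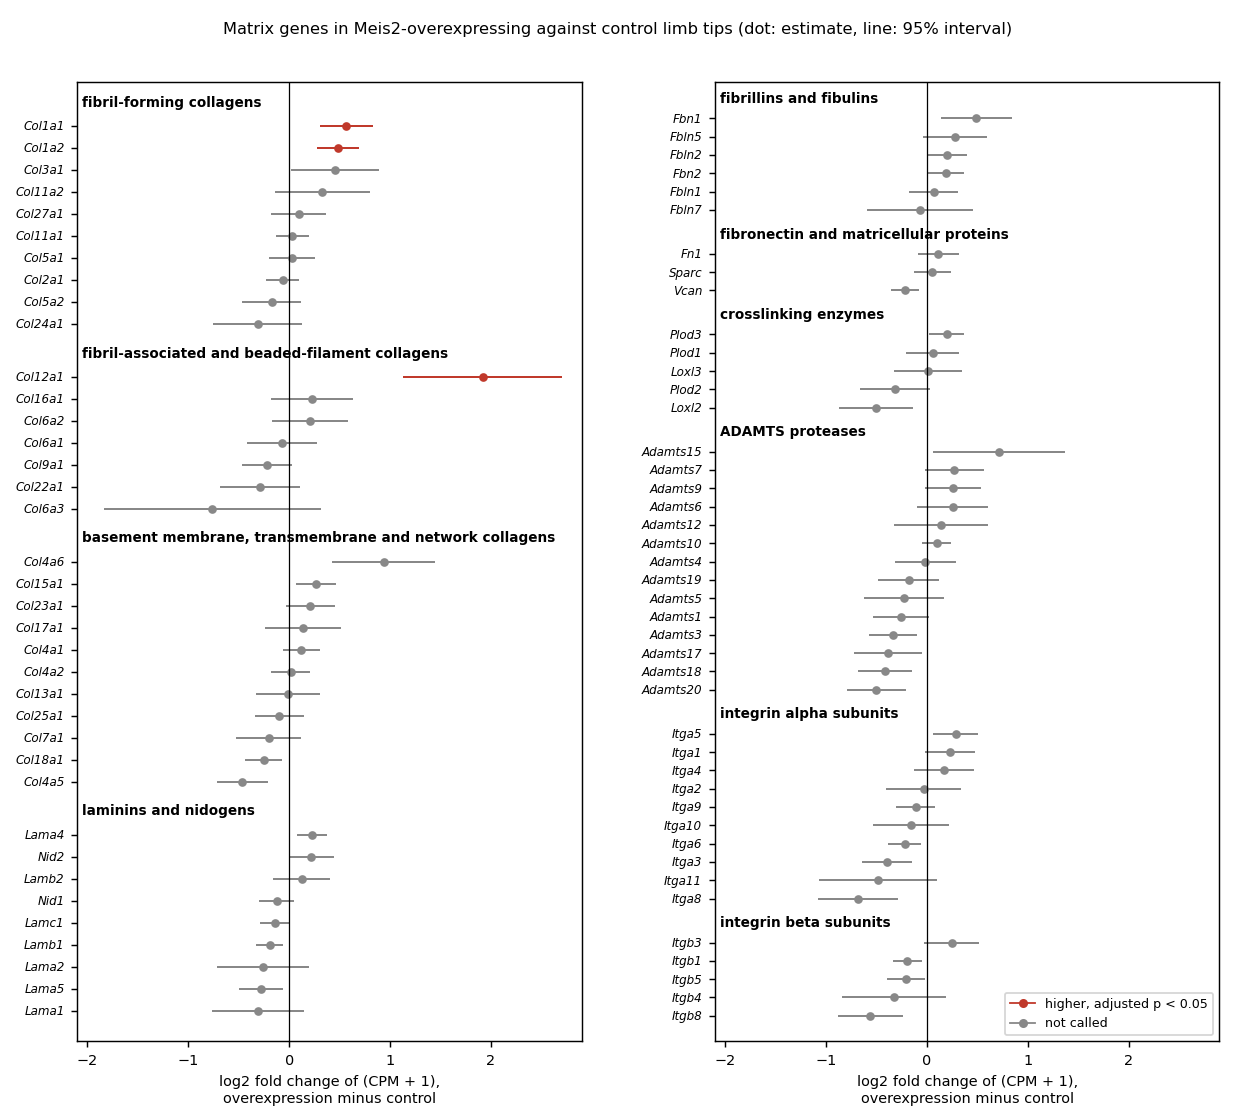
Log2 fold change of (CPM + 1), overexpression minus control, for the matrix genes described here, grouped by role; dots are limma estimates and lines 95% intervals. Col12a1 (1.92), Col1a1 (0.57) and Col1a2 (0.48) were called higher; grey genes were not called.

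Of the 10 fibril-forming collagens, 2 rose, none fell by limma, edgeR or DESeq2 and the median log2 fold change was 0.06. At an unadjusted p under 0.05, 3 were higher and 0 lower. Col1a2, a chain of type I collagen, the main fibril of bone, tendon and skin, was at 176, 219 and 197 CPM in overexpressing tips and at 127, 148 and 148 CPM in controls. Every overexpressing library lay above every control library. The means were 197 ± 21.5 CPM in overexpressing and 141 ± 12.4 CPM in control tips (SD, n = 3 each), with a log2 fold change of 0.48 (SE 0.09, adjusted p = 0.0313). Col1a1, which codes for the other chain of type I collagen, was at 19.5, 23.2 and 18.6 CPM in overexpressing tips and at 13.9, 14.5 and 12.0 CPM in controls. Again the genotypes did not overlap, and the log2 fold change was 0.57 (SE 0.11, adjusted p = 0.0429). The difference was positive at each stage for both chains, 0.46, 0.64 and 0.60 log2 units for Col1a1 and 0.47, 0.56 and 0.41 for Col1a2. Both calls rest on the full set of libraries. With any single library left out Col1a1 had an adjusted p of 0.0527 to 0.164, and Col1a2 stayed called only without the 37-somite overexpressing library, over a range of 0.0159 to 0.104.

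Type III collagen, made of Col3a1 chains alone, forms fibrils with type I in skin and vessel walls. Col3a1 was at 293, 279 and 189 CPM in overexpressing tips and at 240.0, 175 and 143 CPM in controls. The overexpressing library was the higher one at each stage, but levels also differed between stages, so the genotypes overlapped. Its log2 fold change was 0.45 (SE 0.19, adjusted p = 0.288). Once the fit included somite number, the adjusted p was 0.0134. Col5a2, a regulator of fibril diameter that lies tail to tail with Col3a1 on chromosome 1, was at 130, 169 and 201 CPM in overexpressing tips and at 181, 180.4 and 194 CPM in controls, with no call (log2 fold change -0.17, adjusted p = 0.521). The cartilage collagens Col2a1, Col11a1 and Col11a2 had log2 fold changes of -0.06, 0.03 and 0.33, with adjusted p-values of 0.678, 0.851 and 0.459. Per kilobase of transcript, Col1a2 was 10.7 times Col1a1 in overexpressing and 11.7 times in control tips.

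The largest fold change among the matrix genes was that of Col12a1, a fibril-associated collagen found in tendon, ligament and periosteum. It was at 13.2, 9.06 and 4.40 CPM in overexpressing tips and at 1.80, 2.18 and 0.599 CPM in controls. The lowest overexpressing library was above the highest control, although both genotypes were lowest at 39 somites. These values stand on 141, 70 and 68 reads in overexpressing and 19, 25 and 5 reads in control libraries. The means were 8.88 ± 4.40 CPM in overexpressing and 1.53 ± 0.826 CPM in control tips (SD, n = 3 each), and the log2 fold change of (CPM + 1), which understates the change of a low gene, was 1.92 (SE 0.35, 95% interval 1.14 to 2.70, adjusted p = 0.0297). Once the fit included somite number it was 0.00114. Leaving out the 39-somite overexpressing library gave 0.00355, and leaving out any other library ended the call, with values up to 0.107. Per kilobase, Col12a1 had the lowest control level of all 81 members, at 0.133 CPM per kilobase, with 0.772 in overexpressing tips. Every gene in the table reached 2.00 CPM in at least 3 libraries, and Col12a1 reached this level in all 3 overexpressing libraries and in 1 control. It may thus be in the table only through the group where it is high, which can raise its fold change and its call. The size of this effect was not tested.

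The other 6 fibril-associated and beaded-filament collagens were not called. Col6a3, a chain of the beaded filaments of type VI collagen, had the lowest fold change of all members and the widest spread of the control libraries. Its level was 5.89, 12.2 and 5.04 CPM in overexpressing tips and 27.3, 4.97 and 14.9 CPM in controls. The control at 38 somites was the lowest of the 6 libraries and the control at 37 somites the highest, so the log2 fold change of -0.76 (SE 0.48, adjusted p = 0.464) differed in sign between stages. With 1 library left out it lay between -1.37 (without the 38-somite control) and -0.25 (without the 37-somite control). Its partner chains Col6a1 and Col6a2 had log2 fold changes of -0.07 and 0.21. Col9a1, a chain of the cartilage collagen type IX, was at 26.9, 33.3 and 25.8 CPM in overexpressing tips and at 35.8, 34.1 and 30.4 CPM in controls (log2 fold change -0.22, adjusted p = 0.351).

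**Figure D2:**
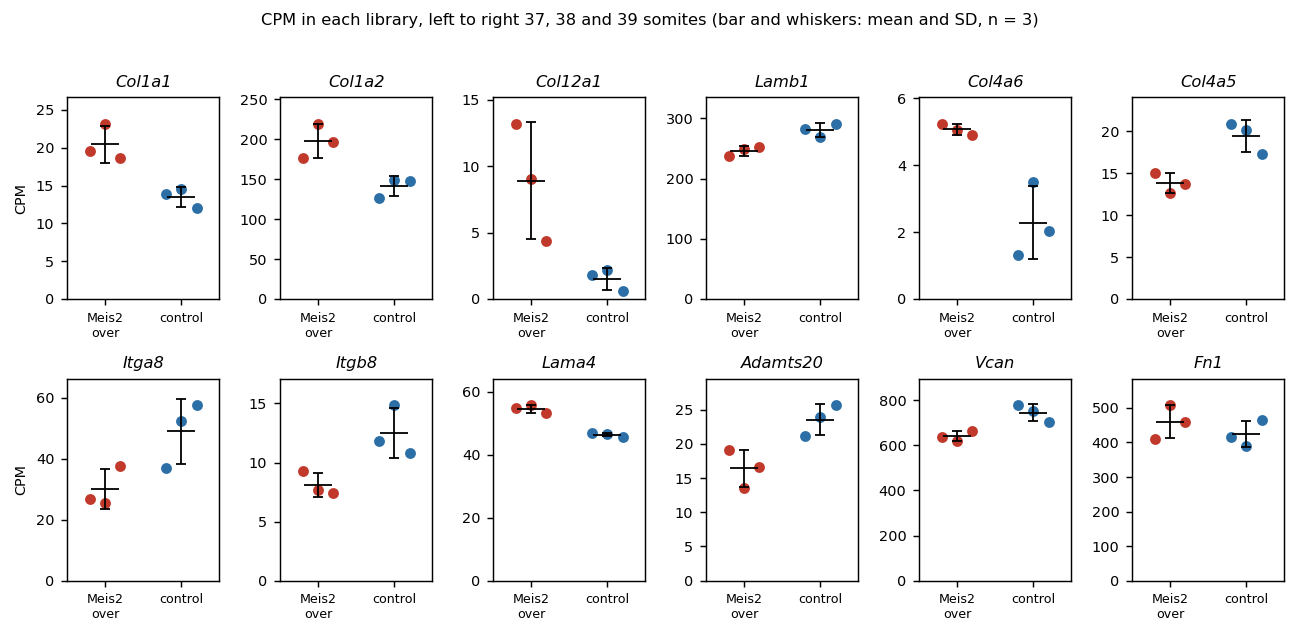
CPM of 12 matrix genes in each library, overexpression left of control, with points from left to right at 37, 38 and 39 somites and bars for mean and SD (n = 3). Col1a1, Col1a2, Col12a1, Col4a6 and Lama4 have every overexpressing point above the controls, Lamb1, Col4a5, Itgb8, Adamts20 and Vcan every one below, and Itga8 and Fn1 overlap.

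None of the 11 basement membrane, transmembrane and network collagens was called by limma, edgeR or DESeq2, and at an unadjusted p under 0.05 there were 2 higher and 2 lower. The abundant type IV chains did not separate the genotypes: Col4a1 was at 385, 467 and 422 CPM in overexpressing tips and at 406, 357 and 406 CPM in controls (log2 fold change 0.12, adjusted p = 0.477), and Col4a2 had a log2 fold change of 0.02. Col18a1, a basement membrane collagen that carries heparan sulphate, named here after its values were seen, was at 174, 198 and 181 CPM in overexpressing tips and at 241, 202 and 217 CPM in controls, without overlap (log2 fold change -0.25, adjusted p = 0.151). The minor type IV chains Col4a5 and Col4a6, which assemble together in basement membranes such as that of the skin and lie head to head on chromosome X, had opposite signs. Col4a6 was at 5.24, 5.05 and 4.91 CPM in overexpressing tips and at 1.33, 3.49 and 2.04 CPM in controls. Its genotypes did not overlap, on 39 to 76 reads in overexpressing and 14 to 40 reads in control libraries. Its log2 fold change was 0.94 (SE 0.22, adjusted p = 0.0766, and 0.0274 without the 38-somite control). Leaving out any other single library gave no call, with adjusted p up to 0.216. Col4a5 was at 15.1, 12.7 and 13.8 CPM in overexpressing tips and at 20.9, 20.2 and 17.4 CPM in controls, also without overlap (log2 fold change -0.46, SE 0.11, adjusted p = 0.0700). The ratio of Col4a6 to Col4a5 per kilobase was 0.342, 0.391 and 0.351 in overexpressing tips and 0.0623, 0.170 and 0.115 in controls. No test is given for this ratio or the ratios that follow, because the pairs were chosen with the values known and an exact test of 3 libraries against 3 cannot give a p below 0.1.

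The promoters of the type IV pair and of Col3a1 and Col1a2 are shown side by side. Of these genes only Col1a2 was called by genotype. Col1a1 and Col12a1 were called but had no promoter window in the source used, so they are not shown. The sequences are from RefSeq (GRCm38.p6), read 5′ to 3′ on the gene's strand, limited to bases before the start site that no annotated exon covers. Capitals mark TGACAG or its reverse complement CTGTCA, the core motif of the Meis family, and TGATTGAC, letters of sites bound by Pbx and Meis factors together, alone or overlapping.
Col4a6 (chrX:141474077-141474326, minus strand): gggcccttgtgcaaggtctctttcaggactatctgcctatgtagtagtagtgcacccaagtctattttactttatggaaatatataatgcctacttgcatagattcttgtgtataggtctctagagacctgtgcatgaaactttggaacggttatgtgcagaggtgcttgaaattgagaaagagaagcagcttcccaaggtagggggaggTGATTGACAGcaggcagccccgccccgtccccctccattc
Col4a5 (chrX:141475169-141475384, plus strand): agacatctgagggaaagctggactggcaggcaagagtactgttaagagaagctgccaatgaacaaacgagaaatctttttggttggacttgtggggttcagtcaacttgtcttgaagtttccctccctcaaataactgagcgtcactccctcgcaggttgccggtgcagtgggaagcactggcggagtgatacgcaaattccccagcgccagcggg
Col3a1 (chr1:45311288-45311537, plus strand): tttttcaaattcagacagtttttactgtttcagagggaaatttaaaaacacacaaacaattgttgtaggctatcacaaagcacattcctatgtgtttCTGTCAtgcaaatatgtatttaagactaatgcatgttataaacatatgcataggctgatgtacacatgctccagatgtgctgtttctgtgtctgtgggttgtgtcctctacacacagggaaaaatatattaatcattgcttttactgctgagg
Col1a2 (chr6:4505370-4505492, plus strand): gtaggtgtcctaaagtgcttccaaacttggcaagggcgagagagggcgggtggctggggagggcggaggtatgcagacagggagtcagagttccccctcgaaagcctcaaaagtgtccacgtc
In the Col4a6 window TGATTGAC began 40 bases and the overlapping TGACAG 36 bases before the start site. The Col3a1 window held CTGTCA, 153 bases before the start. The printed stretches of Col4a5 and Col1a2 held neither. Of the 56 members with a window of 250 bases before the start in the table, 8 (14.3%) held TGACAG on either strand, against 18.0% of 27025 genes with such windows. TGATTGAC on either strand was in 1 member (1.79%) and in 0.799% of all genes, and TGATTGAC overlapping TGACAG as in Col4a6, searched after that window was seen, was in 61 of all genes (0.226%). A match is a description of the letters, not evidence of binding.

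Among the 10 laminins and nidogens none rose by limma, edgeR or DESeq2, 3 were higher and 7 lower by sign, and the median log2 fold change was -0.17. At an unadjusted p under 0.05, 2 were higher and 4 lower. Lamc1, the gamma chain of most laminins, had a log2 fold change of -0.14 (adjusted p = 0.312). Lama4, a chain of vessel basement membranes, was at 55.0, 55.7 and 53.2 CPM in overexpressing tips and at 46.8, 46.7 and 45.8 CPM in controls. Its libraries were tight and did not overlap, and the log2 fold change was 0.23 (SE 0.06, adjusted p = 0.119). The endothelial markers were higher in sum. A link between these markers and Lama4 was not tested. Lamb1, the beta chain shared by many laminins and the most abundant laminin chain per kilobase, was at 237, 249 and 252 CPM in overexpressing tips and at 283, 269 and 291 CPM in controls (log2 fold change -0.19, adjusted p = 0.138), again with no overlap. Lama5 and Lama1, alpha chains of epithelial basement membranes, had log2 fold changes of -0.28 and -0.31 with adjusted p-values of 0.188 and 0.474. The nidogens, which link laminin to type IV collagen, differed in sign. Nid2 was 0.22 (adjusted p = 0.308) and Nid1 -0.13 (adjusted p = 0.436) on the log2 scale, with a ratio of Nid2 to Nid1 per kilobase of 0.503 to 0.628 in overexpressing and 0.386 to 0.502 in control tips. Of the exon bases of Nid2, 8.4% are shared with the opposite-strand gene Rtraf, whose reads the kit does not separate.

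**Figure D3:**
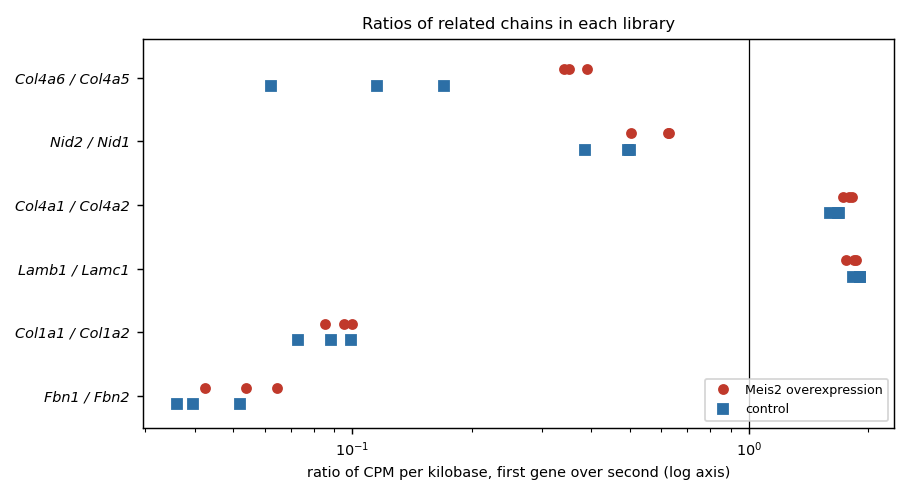
Ratio of CPM per kilobase between related chains in each library, on a log axis, for overexpression (circles) and control (squares). Col4a6 over Col4a5 is 0.342 to 0.391 in overexpressing and 0.0623 to 0.170 in control libraries; Col1a1 over Col1a2 overlaps, at 0.0854 to 0.09999 in overexpressing and 0.0729 to 0.0990 in control libraries.

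The fibrillins and fibulins build microfibrils and elastic fibres. None of the 6 was called by limma, edgeR or DESeq2, 3 were higher at an unadjusted p under 0.05 and none lower, and 5 of 6 were higher by sign, with a median log2 fold change of 0.19. Fbn1, the main fibrillin of microfibrils after birth, was at 24.4, 24.7 and 17.8 CPM in overexpressing tips and at 18.9, 13.9 and 13.9 CPM in controls. The overexpressing library was the higher one at each stage and the genotypes overlapped only through the 39-somite overexpressing and the 37-somite control library. Its log2 fold change was 0.49 (SE 0.15, adjusted p = 0.165), and in the fit that included somite number the adjusted p was 0.0466. The kit does not mark strand, and 20.1% of the exon bases of Fbn1 are shared with the opposite-strand gene model Gm9913. Fbn2, the fibrillin of embryonic tissue, was at 349, 425 and 385 CPM in overexpressing tips and at 336, 322 and 355 CPM in controls (log2 fold change 0.19, adjusted p = 0.258). Per kilobase Fbn1 was 0.0426 to 0.0645 of Fbn2 in overexpressing and 0.0360 to 0.0520 in control libraries. Fbln1, a fibulin of basement membranes and elastic fibres, was at 156, 207 and 209 CPM in overexpressing tips and at 176, 173 and 192 CPM in controls. Its groups overlapped, with a log2 fold change of 0.07 (adjusted p = 0.784) that was -0.01 without the 39-somite overexpressing library.

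Fibronectin, versican and Sparc are abundant matrix proteins of the early bud. None was called by limma or edgeR; 1 was lower and none higher at an unadjusted p under 0.05, and DESeq2 called that gene, Vcan. Vcan, a large chondroitin sulphate proteoglycan of the mesenchymal matrix, was at 636, 621 and 664 CPM in overexpressing tips and at 777, 751 and 703 CPM in controls. All overexpressing libraries lay below the controls, with a log2 fold change of -0.21 (SE 0.06, adjusted p = 0.120). Fn1, which codes for fibronectin, was at 412, 507 and 461 CPM in overexpressing tips and at 416, 391 and 464 CPM in controls, with overlap (log2 fold change 0.12, adjusted p = 0.530). Sparc, a collagen-binding glycoprotein, had a log2 fold change of 0.06 (adjusted p = 0.750).

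None of the 5 crosslinking enzymes was called by limma or edgeR. At an unadjusted p under 0.05, 1 was higher and 1 lower, and DESeq2 called Loxl2 lower. Loxl2, a lysyl oxidase-like enzyme that oxidises lysines for crosslinking, was at 32.1, 32.9 and 44.9 CPM in overexpressing tips and at 42.1, 50.9 and 64.6 CPM in controls. It was lower in overexpressing tips at each stage, while the genotypes overlapped across stages (log2 fold change -0.50, SE 0.16, adjusted p = 0.170). In the fit that included somite number its adjusted p was 0.0114. Its reads may be shared with a near-identical copy, Gm21451. Plod2, the lysyl hydroxylase of collagen telopeptides, was at 53.9, 54.9 and 69.6 CPM in overexpressing tips and at 56.7, 83.6 and 84.9 CPM in controls (log2 fold change -0.32, adjusted p = 0.336). Plod3, which also adds sugars to hydroxylysine, was at 51.8, 56.8 and 60.5 CPM in overexpressing tips and at 48.4, 49.3 and 49.2 CPM in controls, without overlap but not called (log2 fold change 0.20, adjusted p = 0.232). Of the exon bases of Plod3, 11.7% are shared with the opposite-strand gene Znhit1, and the kit does not mark strand.

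Of the 14 ADAMTS proteases none was called by limma or edgeR and DESeq2 called 1, Adamts18, lower. At an unadjusted p under 0.05, 1 was higher and 4 were lower. Adamts20, a protease that cleaves versican, was at 19.1, 13.6 and 16.6 CPM in overexpressing tips and at 21.1, 23.9 and 25.6 CPM in controls. Its libraries did not overlap, with a log2 fold change of -0.50 (SE 0.13, adjusted p = 0.0960). Adamts18 was at 41.6, 34.3 and 40.6 CPM in overexpressing tips and at 46.2, 48.7 and 62.4 CPM in controls, also below in every library (log2 fold change -0.42, adjusted p = 0.130). Adamts3, which removes the propeptide at the amino end of procollagens, had a log2 fold change of -0.34 (adjusted p = 0.150). Adamts15, a versican-cleaving protease with low counts, was at 3.55, 4.27 and 1.81 CPM in overexpressing tips and at 2.46, 1.40 and 0.838 CPM in controls. It had the third-highest fold change of all members, 0.72 on the log2 scale, with overlap between the genotypes and an adjusted p of 0.269. Adamts10, a protease bound to fibrillin microfibrils and the most abundant member of the family per kilobase, was at 66.6, 68.8 and 67.8 CPM in overexpressing tips and at 63.5, 61.2 and 64.7 CPM in controls (log2 fold change 0.10, adjusted p = 0.445).

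By sign 7 of 10 integrin alpha and 4 of 5 beta subunits were lower, with median log2 fold changes of -0.13 and -0.21, but none was called by limma or edgeR. At an unadjusted p under 0.05, 1 alpha subunit was higher and 3 were lower, and 3 beta subunits were lower. DESeq2 called 2 alpha subunits, Itga3 and Itga8, lower. Itga8, the partner of the beta subunit Itgb1 in the receptor for nephronectin, was at 26.8, 25.6 and 37.6 CPM in overexpressing tips and at 37.0, 52.5 and 57.5 CPM in controls. The overexpressing library was below the control at each stage, by 0.45, 1.01 and 0.60 log2 units, and the genotypes overlapped only between the 39-somite overexpressing and the 37-somite control library. The log2 fold change was -0.68 (SE 0.17, adjusted p = 0.0960), and the adjusted p was 0.00791 in the fit that included somite number. It was 0.0312 without the 39-somite overexpressing library and 0.0387 without the 37-somite control. Leaving out any other single library gave no call, with values up to 0.278. Itgb8, which pairs with an alpha V subunit and activates latent TGF-beta, was at 9.26, 7.64 and 7.44 CPM in overexpressing tips and at 11.8, 14.8 and 10.8 CPM in controls, without overlap (log2 fold change -0.56, SE 0.14, adjusted p = 0.0936).

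Itga3 and Itga6, alpha subunits of laminin receptors of epithelia, were below the controls in every library. Itga3 was at 41.8, 40.8 and 35.0 CPM in overexpressing tips and at 59.6, 45.2 and 51.3 CPM in controls (log2 fold change -0.39, adjusted p = 0.119). Itga6 was at 114, 100.1 and 98.5 CPM in overexpressing tips and at 117, 123 and 124 CPM in controls (log2 fold change -0.22, adjusted p = 0.165). The ectodermal markers were lower in sum. A link between these markers and Itga3 or Itga6 was not tested. Itgb1, the common beta subunit of laminin, collagen and fibronectin receptors, had the highest level of all members per kilobase, 121 CPM per kilobase in overexpressing and 138 in control tips. In CPM it was at 467, 434 and 478 in overexpressing tips and at 499, 547 and 529 in controls (log2 fold change -0.19, adjusted p = 0.167). Itga5, the alpha subunit of the main fibronectin receptor, had the opposite sign, with a log2 fold change of 0.29 (adjusted p = 0.189).

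Levels ranged over the members from 0.291 to 121 CPM per kilobase in overexpressing and from 0.133 to 138 in control tips, with medians of 4.28 in overexpressing and 4.27 in control tips. After Itgb1, the highest control levels per kilobase were those of Vcan (59.8), Col4a1 (58.9), Fn1 (51.0), Fbln1 (49.3) and Lamb1 (48.6). The summed level of all members was 5813 to 6293 CPM in overexpressing and 6020 to 6454 CPM in control libraries, which overlap. Reads of 8 members are uncertain because a near-identical gene model is annotated: Col3a1, Loxl2, Fbn1, Itgb5, Itga6, Lama2, Adamts9 and Nid1. For Col3a1, Fbn1, Lama2 and Adamts9 this model overlaps exons of the gene itself and is no copy elsewhere. The coefficient of variation between libraries had a median of 11.4% over the members in overexpressing tips and 10.4% in controls, highest for Itga11 (60.7%) in overexpressing tips and for Col6a3 (71.2%) in controls.

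Stage was examined as a slope per somite in a fit with genotype and somite number. Of the 81 members only Col3a1 had a called slope, -0.34 log2 units per somite (adjusted p = 0.0165), where 0.0995% of all genes were called with a negative and 0.257% with a positive slope. In both genotypes its level was highest at 37 and lowest at 39 somites. The call rests on 3 libraries in particular. Leaving out the 39-somite overexpressing library, the 37-somite control or the 39-somite control gave the adjusted p-values 0.317, 0.105 and 0.124, and without the genotype term it was 0.999. By sign 52 members had a positive and 29 a negative slope, with a median of 0.03. Over all 12065 genes 5942 slopes were positive and 6123 negative, with a median of -0.00116. Lama1 and Loxl2, chosen here after their values were seen, had slopes of 0.34 and 0.27 with adjusted p-values of 0.0604 and 0.0690. With somite number in the fit, limma called 5 of the 81 members higher by genotype (Col1a1, Col1a2, Col3a1, Col12a1 and Fbn1). It called 5 lower (Col4a5, Loxl2, Adamts17 and Itga8 among them). Of all 12065 genes, 177 (1.47%) were called higher and 163 (1.35%) lower in this fit. An added term for a difference in slope between the genotypes called 0 of the 81 members in limma. At an unadjusted p under 0.05 there were 4 members, and 240 (1.99%) of all 12065 genes. This term was fitted with no other tool.

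**Figure D4:**
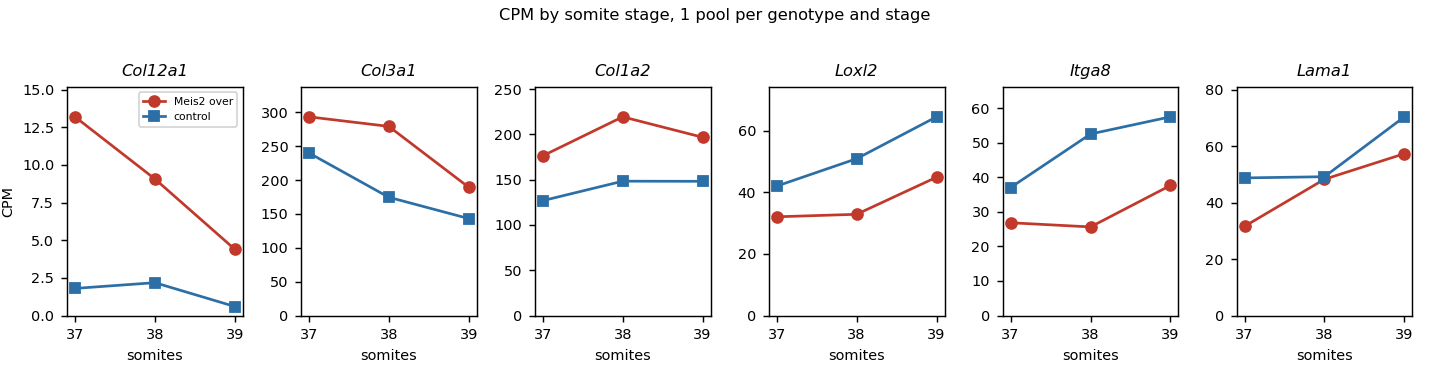
CPM at 37, 38 and 39 somites, 1 pool per genotype and stage, for overexpression (circles) and control (squares). Col3a1 falls from left to right in both genotypes and the overexpressing line is above at each stage; Loxl2 and Itga8 have the overexpressing line below the control at each stage.

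Beside the members, 4 lists of other matrix genes were examined. Of 76 symbols for proteoglycans and other matrix proteins 47 were tested, none rose, 2 fell and the median log2 fold change was 0.02, with 8 higher and 7 lower at an unadjusted p under 0.05. edgeR also called 2 lower, and DESeq2 called 1 higher and 4 lower. Frem1, a protein of the complex that holds embryonic epidermis to the mesenchyme, was at 194, 193 and 211 CPM in overexpressing tips and at 244, 258 and 278 CPM in controls (log2 fold change -0.38, adjusted p = 0.0226). Npnt, which codes for nephronectin, the ligand of the receptor that contains Itga8, was at 26.0, 21.5 and 23.3 CPM in overexpressing tips and at 31.2, 35.9 and 38.2 CPM in controls (log2 fold change -0.55, adjusted p = 0.0306). Neither gene's libraries overlapped.

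Of 37 symbols for collagen folding and trimming 27 were tested and 1 fell, Hsp90b1, a chaperone of the endoplasmic reticulum, at 1424, 1294 and 1378 CPM in overexpressing tips and 1610.4, 1729 and 1741 CPM in controls (log2 fold change -0.31, adjusted p = 0.0432). None of this list rose by limma, edgeR or DESeq2, 1 was higher and 3 lower at an unadjusted p under 0.05, and its median was -0.01. Of 37 symbols for matrix proteases and their inhibitors 22 were tested and 1 fell, Sulf1. Sulf1 removes sulphate groups from heparan sulphate and is neither a protease nor a protease inhibitor. No other gene of this list was called by limma. Sulf1 was at 13.7, 11.1 and 13.3 CPM in overexpressing tips and 18.6, 20.9 and 21.4 CPM in controls. Its log2 fold change was -0.64 (adjusted p = 0.0226). None of this list rose by limma, edgeR or DESeq2, 3 were higher and 4 lower at an unadjusted p under 0.05, and its median was 0.07. Of 27 symbols for the integrin adhesion complex 26 were tested, none was called by limma or edgeR, 4 were higher and 3 lower at an unadjusted p under 0.05, DESeq2 called 1 lower and the median was 0.04. The smallest p-values were those of Ddr1, a collagen receptor kinase, and Cd44, a hyaluronan receptor, with log2 fold changes of -0.33 and -0.50 and an adjusted p of 0.110 each.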

How the data were processed

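Libraries were TruSeq RNA v2 from polyA RNA, a kit that does not mark strand, per the labels' protocols. Tools listed in the submitters' processing notes are RSEM 1.17, cutadapt 1.2.1 and edgeR, with build NCBIM37; the role of each tool and the filter on low genes are not given in the sources used here. The deposited values are CPM on an effective library size; 100% lay within 0.001 of a whole read, so reads were recovered (7622698 to 15395447 per library), and TMM factors from them gave the authors' sizes. No other column of values was used.

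The 12065 genes were tested with limma 3.58.1 in R 4.3.3 (lmFit, eBayes with trend) on log2(CPM + 1), genotype only, two-sided, with Benjamini-Hochberg adjustment over all genes. A gene is called at an adjusted p under 0.05. Fold changes are overexpression minus control on the log2 scale, folds are ratios of mean CPM, and slopes are per somite, with genotype also in the model. The labels do not say that the 2 embryos of a pool, or the pools, came from separate litters, so p-values measure the spread between these libraries.

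Alternatives were pseudocounts of 0.1 and 5, a filter of 5 CPM in 3 libraries, quantile and median-of-ratios scaling, eBayes made robust and without a trend, edgeR 4.0.16 and DESeq2 1.42.0 on recovered reads, somite number, a replicate block, and each library left out. The interaction term and the joined promoter motif were added after the data were seen.

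Named genes were Col1a1, Col1a2 and Col12a1, every called member, the 2 smallest p-values and the highest level per kilobase in each role group, the 3 highest and 3 lowest fold changes, and up to 4 called genes, or else the 2 smallest p-values, of each other list. Members and lists were chosen with earlier results of these data known. All 81 members matched GENCODE M21, used for transcript length, neighbours, shared exons (25 members) and near-identical copies (8 members, blastn 2.17.0). For some members the same overlapping gene model counts as both. M21 is a later build than the authors', and its exons set the limits of the printed promoter stretches. Planned protein features were not run. The values of 1 member, which all counts include, are not reported here.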

Additional observations from a re-analysis of the deposited data

How the results depend on the processing

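Over all genes, 177 were called, against 86 with robust eBayes without a trend, 290 with DESeq2, 340 with somite number in the fit and 56 to 162 with 1 library left out. Members called higher and lower (3 and 1) became 0 and 0 with robust eBayes, 3 and 6 with DESeq2, and 5 and 5 with somite number, and ranged from 0 to 1 and from 0 to 2 with 1 library left out. Both pseudocounts, both scalings and edgeR gave 3 and 1. The filter of 5 CPM gave 2 and 1, because it removed Col12a1. Same-numbered libraries share a somite stage, and their correlations of deviations were 0.0328, -0.152 and 0.381 at 37, 38 and 39 somites. With 3 libraries per genotype these values cannot show whether the numbers pair the libraries. With the replicate block 4 members were called higher and 3 lower in limma and in edgeR. In all, 258 genes were called with the block in limma and 243 in edgeR. The number of called slopes (1) was 0 without the genotype term and 0 to 3 with 1 library left out. The median over the members stayed between -0.04 and 0.02. Fbln1 changed sign without the 39-somite overexpressing library, over a range of -0.00713 to 0.206 with 1 library left out. The cause of these changes was not tested, other than the removal of Col12a1 by the filter. Depth limits Col12a1 most, whose lowest library held 5 reads.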
